A study of Mus musculus with 6 samples.

Results

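The 10 genes described here belong to the TGF-beta and activin pathway, which restrains hepatocyte growth: the ligand genes Tgfb1, Tgfb2, Inhba, Inhbc and Inhbe, the activin antagonist gene Fst, the receptor genes Tgfbr1 and Tgfbr2, and Smad7 and Id1, which respond to these signals. They were found by exact symbol among 34745 genes, 1 row each, and 9 of the 10 passed the filter on low counts. RNA sequencing was done on liver RNA of 12-week-old C57BL/6 mice 48 h after partial hepatectomy (PHx), an operation that removes part of the liver and sets off regrowth. There were 3 libraries labelled Sox9HKO (HKO) and 3 libraries of Sox9f/f mice (WT), which carry the floxed Sox9 allele. The Cre line behind the HKO allele was not given in the sources used here. Nothing in the labels ties a library to a single animal, so the p-values reflect variation among these 6 libraries, which may be technical. The labels give the cell type as hepatocyte and the tissue as liver, and the 8 hepatocyte markers were abundant, summing to 75140 to 80540 CPM in HKO and 78930 to 99510 CPM in WT. Of these, Tat, Cyp2e1 and Cps1 rose (log2 fold changes 1.82, 1.07 and 0.72), none fell, and the median log2 fold change was 0.37. Alb, the most abundant, stood at -0.43 without a call. CPM here are counts scaled by library total and by edgeR's TMM factor, and an adjusted p is edgeR's quasi-likelihood p after Benjamini-Hochberg adjustment over all genes tested.

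TGF-beta and activins are dimeric ligands that bind a type II receptor, which recruits and phosphorylates a type I receptor. The receptor pair then phosphorylates SMAD proteins, which enter the nucleus and change transcription. In hepatocytes TGF-beta and activin A, the dimer of the Inhba product, slow entry into DNA synthesis. Follistatin, the product of Fst, binds activin and blocks it. BMPs, relatives of TGF-beta, act through other SMADs, and Id1 is a classic target gene of theirs. Smad7 is an inhibitory SMAD that feeds back on the receptors.

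The libraries held 16659778 to 21168233 counts. HKO 2 stood apart from the other HKO libraries on the second principal component, which carried 18.8% of the variance, and had 25.9% of its counts in 13 mitochondrial genes, against 12.1% and 12.4% in the other HKO libraries and 13.4% to 16.3% in WT. HKO 2 also had the highest summed endothelial, stellate cell and mesothelial markers, given below. Sox9, the targeted gene, stood at 6.34, 4.30 and 4.78 CPM in HKO 1, 2 and 3, against 6.94, 13.7 and 11.4 CPM in WT 1, 2 and 3 (log2 fold change -1.05, edgeR adjusted p = 0.0284). Each HKO value was under each WT value, with little distance between HKO 1 and WT 1. The call of Sox9 was lost without HKO 2, HKO 3, WT 2 or WT 3 (adjusted p = 0.0503, 0.0862, 0.0929 and 0.0975).

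The start regions of the 3 members that passed the test, Tgfbr2, Inhba and Inhbc, are shown with that of Inhbe, the neighbour of Inhbc, so that a reader can see the letters around each start. Each is 300 bases of RefSeq sequence on GRCm38.p6, read 5′ to 3′ on the gene's strand, from 250 bases before the start to 50 after it. They lie at chr9:116175314-116175613 (minus strand), chr13:16011601-16011900 (plus strand), chr10:127370499-127370798 (minus strand) and chr10:127351799-127352098 (minus strand). Of the 10 members, 7 had an entry in this table. Capitals mark CAGAC, the core of the SMAD-binding element, in either orientation, and TGATGNAA, a C/EBP-ATF composite element, in either orientation. The AP-1 site TGANTCA was also searched on both strands and had no match in these 4 windows. The motifs were chosen with these sequences in view, and the starts are those of RefSeq.
Tgfbr2: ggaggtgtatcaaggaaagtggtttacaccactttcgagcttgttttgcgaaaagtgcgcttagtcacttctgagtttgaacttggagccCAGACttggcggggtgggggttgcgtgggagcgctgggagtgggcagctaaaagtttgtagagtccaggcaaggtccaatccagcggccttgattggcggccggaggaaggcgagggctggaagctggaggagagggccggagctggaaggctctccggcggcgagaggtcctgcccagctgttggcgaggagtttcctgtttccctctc
Inhba: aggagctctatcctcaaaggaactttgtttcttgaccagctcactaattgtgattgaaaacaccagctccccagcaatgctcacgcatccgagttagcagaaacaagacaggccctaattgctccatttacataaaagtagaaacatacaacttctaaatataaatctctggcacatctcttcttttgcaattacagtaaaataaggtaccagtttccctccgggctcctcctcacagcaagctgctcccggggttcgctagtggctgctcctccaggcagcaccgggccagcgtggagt
Inhbc: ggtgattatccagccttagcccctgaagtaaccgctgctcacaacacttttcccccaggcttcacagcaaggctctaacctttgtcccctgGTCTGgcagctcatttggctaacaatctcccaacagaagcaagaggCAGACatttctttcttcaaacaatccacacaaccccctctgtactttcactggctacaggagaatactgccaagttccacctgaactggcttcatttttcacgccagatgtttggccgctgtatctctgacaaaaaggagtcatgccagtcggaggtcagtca
Inhbe: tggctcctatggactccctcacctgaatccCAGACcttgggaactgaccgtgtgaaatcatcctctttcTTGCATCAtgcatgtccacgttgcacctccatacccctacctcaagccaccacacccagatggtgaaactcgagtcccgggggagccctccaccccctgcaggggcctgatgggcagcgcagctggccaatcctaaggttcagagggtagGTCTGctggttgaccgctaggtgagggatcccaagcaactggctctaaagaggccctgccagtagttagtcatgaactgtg

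CAGAC occurred 1 time in the Tgfbr2 window (position -160 from the start), 2 times in the Inhbc window (positions -159 and -113) and 2 times in the Inhbe window (positions -220 and -31), and there was no match in the Inhba window. Among 32851 RefSeq windows of the same length, 49.6% held at least 1 match, so a match here is common. TGATGNAA was found in the Inhbe window only (position -181) and is held by 3.97% of all windows, while TGANTCA is held by 7.81%. No match of these motifs overlapped another. Matches are a description of these letters and not of binding.

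Of the 9 members tested, 3 differed between HKO and WT at an edgeR adjusted p below 0.05. Tgfbr2 (the type II receptor of TGF-beta) and Inhbc (activin beta C) were higher in HKO, and Inhba (activin beta A) was lower. Tgfbr2 averaged 42.6 ± 4.51 CPM in HKO and 24.6 ± 4.70 CPM in WT, Inhbc 85.5 ± 7.12 CPM in HKO and 68.2 ± 1.05 CPM in WT, and Inhba 2.64 ± 0.719 CPM in HKO and 6.61 ± 2.75 CPM in WT (mean ± SD, n = 3 each). The members called higher were 22.2% of those tested, against 12.1% of all 12556 genes tested, and the member called lower was 11.1%, against 11.2%. Among all genes tested 23.2% were called in either direction. The values of the groups did not overlap in 6 of 9 members, against 44.2% of all genes tested. With 9 genes these shares differ from the background by 1 or 2 genes, and nothing is read from them about the set.

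**Figure D1:**
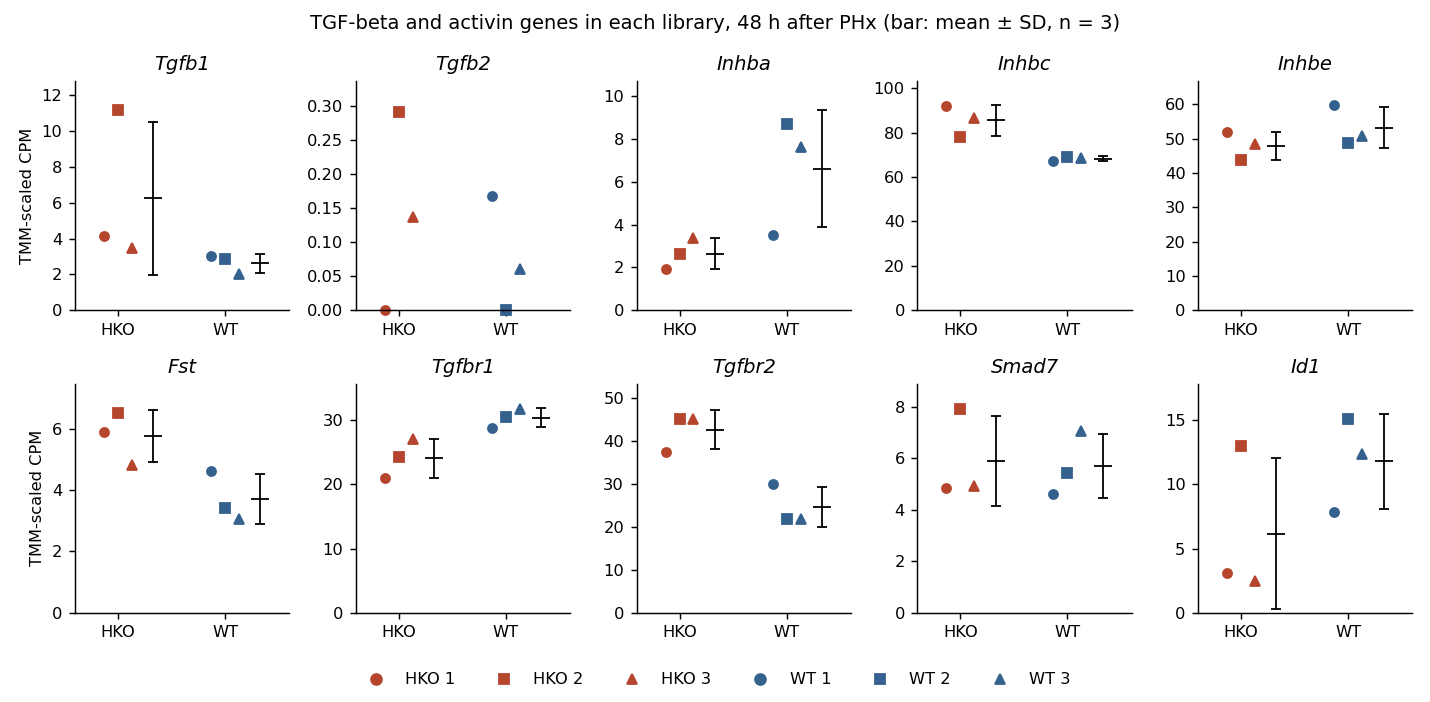
TMM-scaled CPM of each member in the 3 HKO libraries (left, red) and the 3 WT libraries (right, blue); the black bar is the mean ± SD (n = 3), left out for Tgfb2, which had 0 to 5 counts. Tgfbr2 and Inhbc lay higher in all 3 HKO libraries than in all 3 WT libraries, Inhba lay lower, and Tgfb1 and Id1 were high in HKO 2 alone of the HKO libraries.

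The most abundant members were the activin genes Inhbc and Inhbe. On the FPKM scale, which divides by gene length, Inhbc was the highest member in both groups (43.6 ± 5.77 FPKM in HKO, 34.7 ± 1.19 FPKM in WT) and Inhbe the second (22.5 ± 3.00 FPKM in HKO, 25.03 ± 4.09 FPKM in WT). Inhbc and Inhbe encode the activin beta C and beta E subunits, which are made mainly by hepatocytes. Their ranges did not overlap with each other or with the next member in either group. In HKO the order went on with Tgfbr2, then Id1, Tgfbr1 and Fst, whose ranges overlapped each with the next. Tgfb1, Inhba and Smad7 followed and overlapped likewise, and Tgfb2 was last. The wide range of Id1 also overlapped that of Tgfb1 (1.22 to 5.79 FPKM and 0.629 to 1.83 FPKM). In WT the order was Id1 and Tgfbr2, which overlapped, then Tgfbr1, then Inhba and Fst, which overlapped, then Smad7, Tgfb1 and Tgfb2, each clear of the next.

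Inhba (ENSMUSG00000041324, chromosome 13, 16011851 to 16027211, plus strand) encodes the subunit of activin A. It stood at 1.93, 2.62 and 3.37 CPM in HKO 1, 2 and 3, against 3.50, 8.71 and 7.63 CPM in WT 1, 2 and 3, from 36 to 155 counts per library. All HKO values lay below all WT values, but WT 1 lay close to HKO 3 and well below WT 2 and WT 3. The HKO mean was 0.400 of the WT mean (log2 fold change -1.32, SE 0.37, edgeR adjusted p = 0.0372). Omitting HKO 1, 2 or 3, or WT 2 or 3, ended the call (adjusted p = 0.102, 0.0551, 0.0572, 0.119 and 0.124), as did limma-voom (adjusted p = 0.0730), with log2 fold changes of -1.64 to -1.07 over the 14 alternatives.

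Inhbc (ENSMUSG00000025405, chromosome 10, 127356328 to 127370544, minus strand) stood at 92.1, 78.0 and 86.5 CPM in HKO 1, 2 and 3, against 67.0, 69.0 and 68.6 CPM in WT 1, 2 and 3. The 3 WT values were close together and below every HKO value. The difference was small, 1.25 times by the means (log2 fold change 0.33, SE 0.094, edgeR adjusted p = 0.0412), and 9 of the 14 alternatives lost the call, with adjusted p from 0.0274 to 0.134 over the 14. Without HKO 2 the log2 fold change was 0.39 (adjusted p = 0.0274), and leaving out any other library lost the call.

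Inhbe (ENSMUSG00000047492, chromosome 10, 127349402 to 127351772, minus strand) lies 4555 bases from Inhbc on the same strand, and did not pass the test. It stood at 51.8, 43.7 and 48.4 CPM in HKO 1, 2 and 3, against 59.9, 48.8 and 50.9 CPM in WT 1, 2 and 3, so that the groups overlapped. The log2 fold change was -0.15 with a 95% interval of -0.42 to 0.12, or 0.749 to 1.09 on the fold scale (edgeR adjusted p = 0.381). The ratio of Inhbc to Inhbe within a library, in FPKM, was 1.93, 1.94 and 1.94 in HKO 1, 2 and 3, against 1.22, 1.54 and 1.47 in WT 1, 2 and 3. The HKO ratios were nearly equal to each other and above each WT ratio.

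The TGF-beta ligand genes were scarce. Tgfb1 (ENSMUSG00000002603, chromosome 7, 25687002 to 25705077, plus strand), the main TGF-beta isoform gene of injured liver, stood at 4.14, 11.2 and 3.46 CPM in HKO 1, 2 and 3, against 3.00, 2.87 and 2.01 CPM in WT 1, 2 and 3. Every HKO value was above every WT value, and HKO 2 was 2.94 times the mean of the other HKO libraries. The test was not passed (log2 fold change 1.24, SE 0.46, edgeR adjusted p = 0.0861), and without HKO 2 the log2 fold change was 0.53 (adjusted p = 0.169). DESeq2 called Tgfb1 (adjusted p = 0.0297).

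Tgfb2 (ENSMUSG00000039239, chromosome 1, 186622792 to 186705989, minus strand), the gene of a second TGF-beta isoform, was the member that did not pass the filter. It had 0, 5 and 3 counts in HKO 1, 2 and 3, and 3, 0 and 1 counts in WT 1, 2 and 3. A count of 0 allows up to 0.161 CPM in HKO 1 and 0.169 CPM in WT 2, taken as 3 counts and covering counting error only. No difference was detectable at this depth.

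Fst (ENSMUSG00000021765, chromosome 13, 114452262 to 114458730, minus strand), the antagonist gene, stood at 5.91, 6.51 and 4.83 CPM in HKO 1, 2 and 3, against 4.61, 3.43 and 3.05 CPM in WT 1, 2 and 3. HKO values lay above WT values, with HKO 3 and WT 1 close together. The log2 fold change of 0.63 (SE 0.22, 95% interval 0.11 to 1.15) did not pass after adjustment (edgeR adjusted p = 0.0777), and it stayed between 0.51 and 0.81 over the 14 alternatives without a call. The ratio of Fst to Inhba within a library, in FPKM, was 3.90, 3.18 and 1.83 in HKO 1, 2 and 3, against 1.68, 0.503 and 0.511 in WT 1, 2 and 3. Inhba exceeded Fst per length in WT 2 and WT 3, while Fst exceeded Inhba in the 3 HKO libraries and in WT 1.

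Of the receptor genes, Tgfbr2 rose and Tgfbr1 did not pass the test. Tgfbr2 (ENSMUSG00000032440, chromosome 9, 116087698 to 116175363, minus strand) stood at 37.4, 45.2 and 45.2 CPM in HKO 1, 2 and 3, against 30.0, 21.8 and 21.9 CPM in WT 1, 2 and 3. The groups did not overlap, and WT 1 was the highest WT library. The HKO mean was 1.73 times the WT mean (log2 fold change 0.79, SE 0.15, edgeR adjusted p = 0.0100), and the call was lost in 1 of 14 alternatives, without WT 3 (log2 fold change 0.72, adjusted p = 0.0502).

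Tgfbr1 (ENSMUSG00000007613, chromosome 4, 47353222 to 47414931, plus strand), the type I receptor gene, stood at 20.9, 24.2 and 27.0 CPM in HKO 1, 2 and 3, against 28.8, 30.6 and 31.8 CPM in WT 1, 2 and 3. Each HKO value was below each WT value. The log2 fold change of -0.34 (SE 0.12, 95% interval -0.61 to -0.057) did not pass after adjustment (edgeR adjusted p = 0.0804). The ratio of Tgfbr2 to Tgfbr1 within a library, in FPKM, was 3.40, 3.56 and 3.19 in HKO 1, 2 and 3, against 1.99, 1.36 and 1.31 in WT 1, 2 and 3.

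The 3 ratios were chosen with the members' values known. Each did not overlap between the groups, and each had a two-sided exact permutation p of 0.1 (0.1 adjusted over the 3), the smallest that 3 against 3 libraries allow. This p follows from the non-overlap alone and adds nothing to it. As the mean difference of log2 ratios, HKO minus WT, they were 0.47 for Inhbc over Inhbe, 1.91 for Fst over Inhba and 1.15 for Tgfbr2 over Tgfbr1. Without WT 1 the difference for Fst over Inhba was 2.48.

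**Figure D2:**
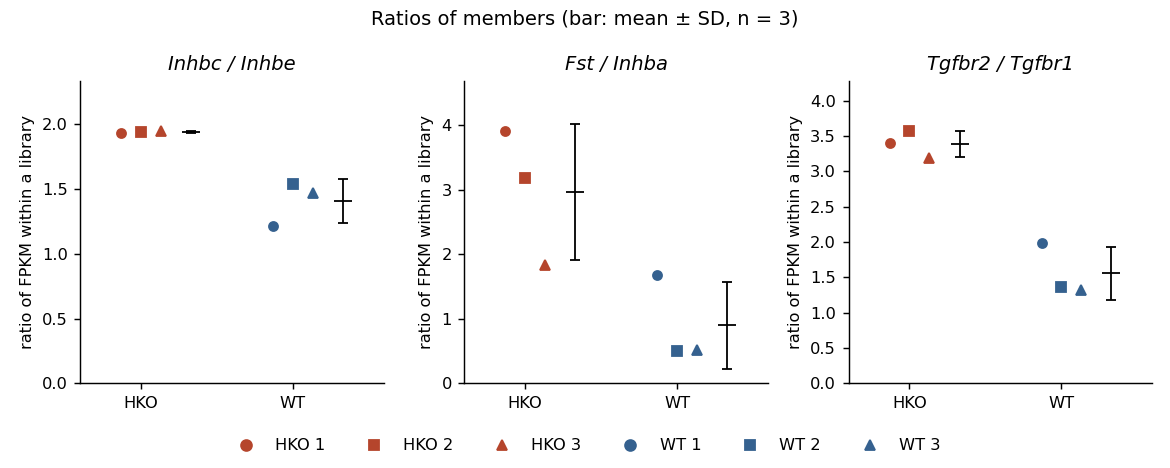
Ratio of the FPKM of 2 members within each library for Inhbc over Inhbe, Fst over Inhba and Tgfbr2 over Tgfbr1, with HKO left and WT right; bars are mean ± SD (n = 3). The 3 HKO points lie above the 3 WT points in each panel, with HKO 3 and WT 1 closest for Fst over Inhba (1.83 and 1.68).

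Of the response genes, Smad7 (ENSMUSG00000025880, chromosome 18, 75367529 to 75395935, plus strand) gave no difference past the test. It stood at 4.83, 7.91 and 4.92 CPM in HKO 1, 2 and 3, against 4.61, 5.45 and 7.08 CPM in WT 1, 2 and 3. The groups overlapped, and the 95% interval was 0.679 to 1.56 on the fold scale (edgeR adjusted p = 0.923).

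Id1 (ENSMUSG00000042745, chromosome 2, 152736251 to 152737410, plus strand), a helix-loop-helix inhibitor of differentiation, split the HKO libraries. It stood at 3.06, 12.97 and 2.46 CPM in HKO 1, 2 and 3, against 7.83, 15.1 and 12.4 CPM in WT 1, 2 and 3. HKO 1 and HKO 3 lay below every WT library, and HKO 2, at 4.70 times the mean of the other HKO libraries, lay among the WT values. Over all libraries the test was not passed (log2 fold change -0.95, SE 0.59, edgeR adjusted p = 0.279). Without HKO 2 it was (log2 fold change -2.09, adjusted p = 0.00227).

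**Figure D3:**
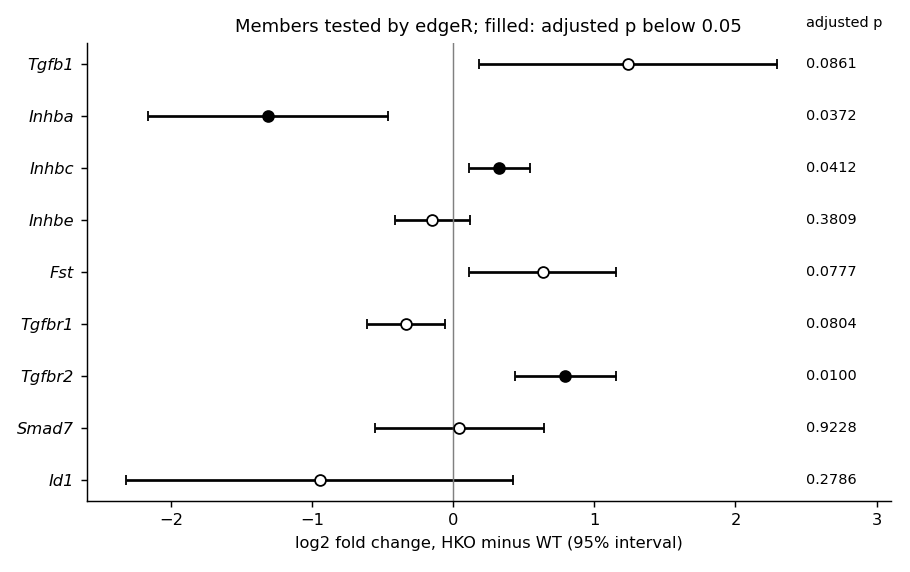
Log2 fold change (HKO minus WT) of the 9 tested members with its 95% interval and the edgeR adjusted p at the right; filled points have an adjusted p below 0.05. Inhba at -1.32, Inhbc at 0.33 and Tgfbr2 at 0.79 are filled, and the intervals of Inhbe, Smad7 and Id1 span 0.

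Endothelial and stellate cell markers were high in HKO 2, as were some members. In bulk RNA more cells of a type and more RNA per cell cannot be told apart. The 10 endothelial markers summed to 193, 583 and 248 CPM in HKO 1, 2 and 3, against 115, 189 and 159 CPM in WT 1, 2 and 3, and 1 of 10 passed the test, higher in HKO. The 11 stellate cell and fibroblast markers summed to 79.5, 328 and 90.9 CPM in HKO 1, 2 and 3, against 84.9, 59.8 and 64.3 CPM in WT 1, 2 and 3, with 2 of 10 tested higher. Over all genes tested 12.1% were higher. HKO 2 was thus the highest library for both lists. Among tested members it was also the highest library for Tgfb1, Smad7 and Fst, and the highest HKO library for Id1. For Fst it was 1.21 times the mean of HKO 1 and HKO 3. In the other libraries Id1 did not rise with the endothelial sum (3.06 and 2.46 CPM in HKO 1 and HKO 3, 7.83 to 15.1 CPM in WT). Smad7 did not either (4.83 CPM in HKO 1, 7.08 CPM in WT 3). The 10 Kupffer cell and macrophage markers, which all passed the test as higher, summed to 386, 245 and 363 CPM in HKO 1, 2 and 3, against 177, 177 and 169 CPM in WT 1, 2 and 3, so HKO 2 was the lowest HKO library there.

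Mesothelial markers summed to 0.430, 13.8 and 0.684 CPM in HKO 1, 2 and 3, against 0.389, 0.393 and 0.366 CPM in WT 1, 2 and 3, with Msln at 0 in every library but HKO 2. Of the biliary markers only Spp1 and Sox9 could be tested. Both fell, but Sox9 is the targeted gene, so its fall says nothing about biliary cells. Spp1 stood at 23.4, 34.8 and 18.6 CPM in HKO 1, 2 and 3, against 46.6, 143 and 123 CPM in WT 1, 2 and 3 (log2 fold change -2.03, edgeR adjusted p = 0.0117). WT 1 was the lowest WT library for Spp1, as it was for Inhba, Id1 and Hamp, and the part of biliary cells in the values of these genes was not tested. The other biliary markers were near 0 and not tested. Each was highest in HKO 2, at most 3.198 CPM (Krt19). Krt19 stood at 0.161 and 0.137 CPM in HKO 1 and HKO 3, against 0.0556 to 0.449 CPM in WT. The 6 biliary markers summed to 30.2, 45.8 and 24.0 CPM in HKO 1, 2 and 3. In WT 1, 2 and 3 they summed to 54.1, 158 and 135 CPM, and Spp1 and Sox9 made up most of each sum. Of 4 T cell markers Cd3d and Cd8a were at 0 throughout, and the 4 platelet markers summed to 2.36, 5.47 and 1.78 CPM in HKO 1, 2 and 3, against 1.67, 1.29 and 0.915 CPM in WT 1, 2 and 3. The part of other cell types in the values of the members, Tgfbr2 and Inhba included, was not tested. Tgfbr2 was about as high in HKO 2 as in HKO 3 (45.2 CPM each), and without HKO 2 its log2 fold change was 0.75 (edgeR adjusted p = 0.0161). Inhba kept a similar fold without HKO 2 (log2 fold change -1.30), although its adjusted p was then 0.0551. The macrophage sums of HKO 1 and HKO 3 (386 and 363 CPM) were also above every WT library (at most 177 CPM). Their endothelial sums were above too, but for HKO 1 by little (193 CPM, against 189 CPM in WT 2). Leaving out HKO 2 was therefore not a test of these cell types.

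**Figure D4:**
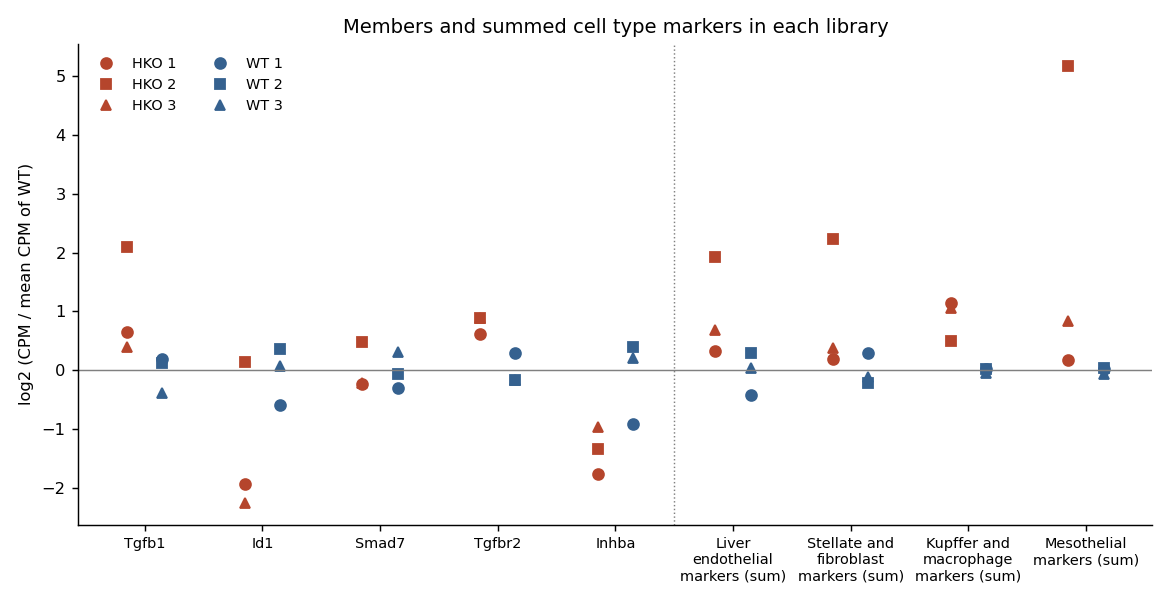
Log2 of the CPM over the WT mean for 5 members (left of the dotted line) and for the summed CPM of 4 cell type marker lists (right), per library, HKO left of WT within each item. HKO 2 (square) is the highest library for Tgfb1, Smad7 and the endothelial, stellate and mesothelial sums. It is the highest HKO library for Id1 and the lowest HKO library for the macrophage sum.

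The wider pathway was followed in 92 other genes in 7 lists, of which 70 were tested. There, 11 were higher in HKO and 3 lower, or 20% called, against 23.2% of all genes tested. Over all genes tested 12.1% were higher and 11.2% lower, and the lists are too short to read their counts against these shares. Without WT 1, WT 2 or WT 3 the pathway genes called higher numbered 6, 6 and 4, against 1086, 952 and 722 over all genes tested. Those called lower numbered 0 without WT 2 or WT 3 and 1 without HKO 1. Over all genes tested 894, 682 and 989 were then lower. Among ligands and latent complexes 2 of 12 tested rose and none fell. The list's median was 0.96 as a log2 fold change, against 0.019 over all genes tested. By library, the median log2 ratio of the tested genes to the WT mean, with 0.5 CPM added to both, was 0.486, 1.22 and 0.639 in HKO 1, 2 and 3, highest in HKO 2, the library with the high endothelial and stellate cell markers. Inhbb, which encodes activin beta B, stood at 4.78, 14.2 and 6.11 CPM in HKO 1, 2 and 3, against 0.556, 1.40 and 1.22 CPM in WT 1, 2 and 3. It was thus low in every WT library and highest in HKO 2 (log2 fold change 2.97, SE 0.51, edgeR adjusted p = 0.00623, and 2.36 without HKO 2). Furin, the gene of a protease that cleaves TGF-beta precursors, averaged 248 ± 20.2 CPM in HKO and 173 ± 10.2 CPM in WT (mean ± SD, n = 3; log2 fold change 0.52). Its call was lost without WT 3 (adjusted p = 0.0604).

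Of 13 receptors and co-receptors tested, 1 rose and 1 fell, with a median of -0.057. The co-receptor gene Rgmb averaged 2.34 ± 0.863 CPM in HKO and 0.899 ± 0.194 CPM in WT (mean ± SD, n = 3; log2 fold change 1.37), and the BMP type I receptor gene Bmpr1a averaged 32.3 ± 4.07 CPM in HKO and 42.2 ± 1.05 CPM in WT (mean ± SD, n = 3; log2 fold change -0.38). Both calls were lost in 7 and 8 of the 14 alternatives. The activin receptor genes Acvr1b, Acvr2a and Acvr2b did not pass, with log2 fold changes of 0.12, -0.11 and -0.68.

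Among extracellular antagonists 1 of 5 tested rose, with a median of 0.88. By library, the median log2 ratio to the WT mean was 0.383, 1.95 and 0.311 in HKO 1, 2 and 3, so HKO 2 again stood highest. The gene that rose was Dcn, a matrix proteoglycan gene whose product binds TGF-beta, which was highest in HKO 2 at 185 CPM (log2 fold change 1.22, and 0.65 without HKO 2), and its call was lost without WT 1, WT 2 or WT 3 (adjusted p = 0.0653, 0.134 and 0.140) and by limma-voom (0.0548). Of the 7 BMP ligand genes, Bmp10 rose (log2 fold change 1.59, and 0.98 with the call lost without HKO 2, adjusted p = 0.0576), and the others did not pass. The call of Bmp10 was also lost without WT 1, 2 or 3 (adjusted p = 0.0628, 0.122 and 0.123) and by limma-voom (0.0811). The median log2 ratio of the BMP ligand genes to the WT mean was 0.511, 1.73 and 0.469 in HKO 1, 2 and 3.

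Of 20 tested SMADs and intracellular regulators 3 rose and 1 fell, with a median of 0.11. Ski, a corepressor of SMADs, Smurf1, a ubiquitin ligase of the pathway, and Ppm1a, a SMAD phosphatase, rose with log2 fold changes of 0.50, 0.41 and 0.39, each with a call lost in 6 or more of 14 alternatives. Tgif1, a corepressor, averaged 9.70 ± 1.54 CPM in HKO and 15.2 ± 1.37 CPM in WT (mean ± SD, n = 3; log2 fold change -0.64, edgeR adjusted p = 0.0214, lost without WT 2 or WT 3 at 0.0662 and 0.0871). The receptor-activated Smad1, Smad2, Smad3 and Smad5 and the common Smad4 did not pass, with log2 fold changes from -0.31 to 0.13.

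Among targets of TGF-beta and activin signals 3 of 12 tested rose and 1, Tgif1, fell, with a median of 0.85. By library, the median log2 ratio to the WT mean was 0.246, 0.854 and 0.526 in HKO 1, 2 and 3. Ctgf, a matricellular protein gene that also answers to YAP, stood at 4.73, 10.1 and 3.42 CPM in HKO 1, 2 and 3, against 0.833, 1.01 and 0.915 CPM in WT 1, 2 and 3 (log2 fold change 2.71, and 2.14 without HKO 2, adjusted p = 0.00506 and 0.00140). Every HKO library was thus above every WT library.

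Bhlhe40, a transcriptional repressor gene also tied to the clock, averaged 92.9 ± 6.12 CPM in HKO and 47.5 ± 4.06 CPM in WT, and Cdkn1a, the gene of the cell cycle inhibitor p21, averaged 72.0 ± 6.34 CPM in HKO and 43.4 ± 6.94 CPM in WT (mean ± SD, n = 3; log2 fold changes 0.97 and 0.73). Ctgf, Bhlhe40 and Cdkn1a were called as higher in each of the 14 alternatives. Each of these genes also responds to other signals, and Col1a1, Col1a2, Tgfbi, Pmepa1, Skil, Snai2, Junb and Fn1 did not pass. Col1a1 stood at 48.9 CPM in HKO 2 and at 2.005 to 4.11 CPM in the other 5 libraries.

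Among targets of BMP signals 1 of 7 tested fell and none rose, with a median of -0.066. Hamp, which encodes hepcidin, the iron hormone that BMP signals induce in hepatocytes, stood at 54.4, 154 and 46.8 CPM in HKO 1, 2 and 3, against 202, 398 and 364 CPM in WT 1, 2 and 3. HKO 2 was the highest HKO library and WT 1 the lowest WT library, the same placing as for Id1. The log2 fold change was -1.92 (SE 0.47, edgeR adjusted p = 0.0240) and -2.67 without HKO 2 (adjusted p = 0.000581), and the call was lost without HKO 1, HKO 3, WT 2 or WT 3 (adjusted p from 0.0636 to 0.0806). The Id1 relatives Id2 and Id3 did not pass, with log2 fold changes of -0.49 and -0.64 (adjusted p = 0.150 and 0.0514).

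**Figure D5:**
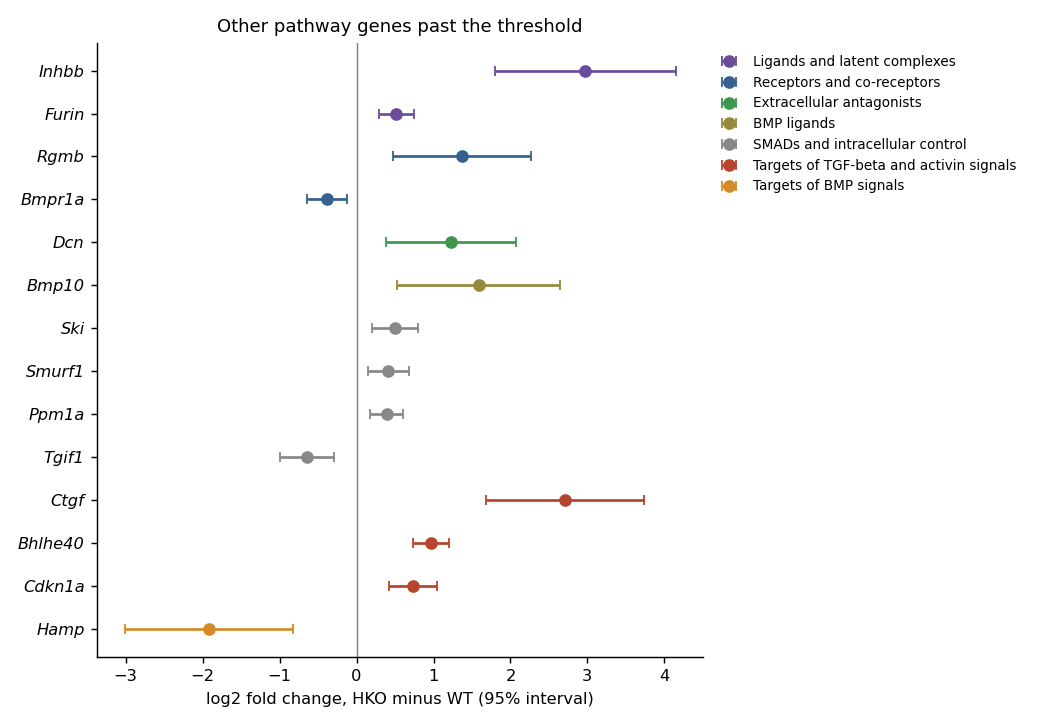
Log2 fold change (HKO minus WT) with its 95% interval for the 14 other pathway genes past an edgeR adjusted p of 0.05, coloured by list; a gene in 2 lists is shown once. Of these, 11 lie above 0, led by Inhbb at 2.97 and Ctgf at 2.71, and Bmpr1a, Tgif1 and Hamp lie below 0.

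For the 3 members past the test, the tested genes with the most similar pattern were ranked by Pearson's r of log2 CPM over the 6 libraries, as a description, since the points share the split between the groups. For Inhba they were Zfp770, Ptpdc1 and Mbtps1 (r = 0.999, 0.994 and 0.990), for Tgfbr2 they were Ets2, Dusp8 and Cul9 (r = 0.999, 0.998 and 0.996), and for Inhbc they were Phyh, Lamp1 and Ctsb (r = 0.999, 0.998 and 0.998). With 6 points such values are common, and 277 genes for Inhba, 570 for Tgfbr2 and 1070 for Inhbc had r above 0.9.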

How the data were processed

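Liver RNA of 6 libraries (3 HKO, 3 WT) was measured. HISAT2 2.0.4 and StringTie 1.3.0, with builds mm10 and GRCm38.p4, are named per the submitters' processing notes, without their settings. The authors deposited whole-number read counts and FPKM per gene in 1 table, per the file headers. The treatment of reads that match more than 1 gene was not given in the sources used here. Wherever a gene reached 50 counts throughout (9308 genes), FPKM equals the count over the column total and 1 gene length, to within 0.00185%.

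The deposited counts were tested with edgeR 4.0.16 (R 4.3.3): filterByExpr kept 12556 of 34745 genes, TMM set the library scaling, and the quasi-likelihood F-test gave HKO minus WT, with Benjamini-Hochberg adjustment over all genes tested and calls below 0.05. Intervals are 95% from the test's t distribution. Alternatives used limma 3.58.1 and DESeq2 1.42.0. The procedure was checked on simulated counts. The protocol describes no strand marking, so reads from overlapping genes cannot be told apart. In GENCODE M21 exons of Inhbc, Fst, Tgfb2, Furin, Bmpr1a, Bhlhe40, Cdkn1a, Ctgf and Fn1 overlap antisense or predicted genes on the opposite strand. Exons of Acvr2a overlap Orc4 and those of Junb overlap Prdx2, also on the opposite strand. Exons of Spp1 and Smad5 overlap predicted genes on the same strand.

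The members and the lists were chosen with earlier results of these data known. Named are all members, every pathway gene called (at most 8 a list; 2 listed genes are not reported here and enter no list's count), Sox9, and for the 3 called members with the largest change the 3 most similar genes. Hjv was matched by its older symbol, Hfe2.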

Additional observations from a re-analysis of the deposited data

How the results depend on the processing

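For the 9 tested members, Sox9 and the 14 called pathway genes, 14 alternatives gave 336 values, of which 255 kept their direction and side of the threshold, 77 kept the direction and lost the call, 2 gained one (Tgfb1 by DESeq2, Id1 without HKO 2) and 2 turned round, both for the uncalled Smad7 (log2 fold change -0.22 without HKO 2 and -0.11 without WT 1, in a range of -0.22 to 0.22 with 1 library left out). The counts of genes ranged from 722 to 1589 higher and 682 to 1546 lower with 1 library left out, lowest without WT 3 (722 and 682) and also below the 1516 and 1401 of the full set by over 1.5 times without WT 2 (952 and 894) and without HKO 3 (969 and 907). Members called higher, 2 in the full set, ranged from 0 to 2 and members called lower, 1 in the full set, from 0 to 1 with 1 library left out. Only Tgfbr2 was higher, 1 member, with no composition scaling, with no filter and with a replicate block, and 0 were lower by limma-voom. With a replicate block Inhbc had an adjusted p of 0.0861 (log2 fold change 0.32) and Tgfbr2 0.0252, and the calls of Sox9, Dcn and Bmp10 were lost (adjusted p = 0.0652, 0.0827 and 0.0817). Pathway genes called higher, 11 in the full set, numbered 17 by DESeq2 and 7 with the block. Over all genes tested those called higher numbered 1516 in the full set, 1606 by DESeq2 and 1245 with the block. Deviations from the group means had correlations of -0.0019, 0.0025 and 0.072 for same-numbered libraries. Differently numbered libraries gave -0.0764 to 0.0556. The main fit did not take the numbers to pair libraries, but with 3 libraries per group these correlations cannot decide whether they do. With 1 library left out, alternatives chosen after seeing the data, the log2 differences of the ratios ranged from 0.37 to 0.54 for Inhbc over Inhbe, 1.61 to 2.48 for Fst over Inhba and 1.04 to 1.34 for Tgfbr2 over Tgfbr1. Members at a few CPM (Inhba, Tgfb1, Fst, Smad7, Id1) rest on 33 to 269 counts per library, which limits their precision, and causes of the changes were not tested.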
